A study of Mus musculus with 8 samples.

Results

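Clones a and b of one mouse embryonic stem cell line were compared by where H3K27ac peaks had been called in both libraries of one clone and in neither library of the other. Merging every pair of peaks that shared at least 1 bp turned the 4 deposited lists into 82792 union regions. Of these, 2787 (3.37%) were called in clone a only and 2433 (2.94%) in clone b only, so 5220 regions (6.3%) met the rule. The cells were E14tg2a embryonic stem cells of 129SV background. Both clones carried a stable cassette for cRAF-ErT2, in which a RAF kinase is joined to the hormone-binding part of the oestrogen receptor so that 4-hydroxytamoxifen (4OHT) switches it on. Culture of all cells was in serum medium with LIF plus the GSK3 inhibitor Chir99021 at 2 uM. At 24 h before treatment this was replaced by serum medium with LIF plus the FGF receptor inhibitor PD173074 at 250 nM. Each clone gave 1 untreated library and 1 library from cells given 250 nM 4OHT for 2 h, called treated below. The labels do not say how the clones were derived, and each clone is a single culture line with 1 library per treatment. Differences between them are therefore differences between these libraries, and an exact permutation test of 2 libraries against 2 cannot give a p below 0.333.

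H3K27ac is acetylation of lysine 27 of histone H3, placed mainly by the related acetyltransferases CBP and EP300 and removed by histone deacetylases. It marks promoters and enhancers in use, and broad stretches of it lie over genes that define a cell's identity. In embryonic stem cells these include the genes for the pluripotency factors Pou5f1, Sox2, Nanog and Esrrb. Clones grown from one line can come to differ in such domains during culture.

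A minority of clone-specific regions reached the bases just before an annotated gene start. Among 21263 RefSeq windows of 250 bases before the start of a protein-coding gene (mm10, assembly GRCm38.p6), 113 were overlapped by a clone a only region and 108 by a clone b only region. Another 8573 were overlapped by a region called in all 4 libraries and by no clone-specific region. Each window was counted in a single class, with clone a only regions taking precedence, then clone b only. The windows of the highest-ranked such region of each clone, the next-ranked one, and the highest-ranked one in the chromosome 14 interval described further on are printed here because they show what kind of promoter was called in a single clone. Capitals mark 3 motifs, searched on both strands: the GC box (GGGCGG or CCGCCC), the CCAAT box (CCAAT or ATTGG) and the TATA box (TATAAA or TTTATA). Each sequence runs 5′ to 3′ on the gene's own strand and ends at the base before the start.
Zfp983, chr17:21650361-21650610, plus strand, clone a only: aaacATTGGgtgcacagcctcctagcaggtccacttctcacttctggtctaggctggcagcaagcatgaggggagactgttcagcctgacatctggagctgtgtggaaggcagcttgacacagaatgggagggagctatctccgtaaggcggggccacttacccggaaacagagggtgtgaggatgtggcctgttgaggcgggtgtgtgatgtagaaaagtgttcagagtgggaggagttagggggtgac
Cs, chr10:128337477-128337726, plus strand, clone a only: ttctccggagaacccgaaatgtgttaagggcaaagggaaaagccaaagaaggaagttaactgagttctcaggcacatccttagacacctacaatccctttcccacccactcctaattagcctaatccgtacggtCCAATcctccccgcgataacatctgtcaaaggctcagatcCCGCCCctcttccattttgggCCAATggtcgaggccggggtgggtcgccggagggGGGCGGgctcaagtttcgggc
Zfp534, chr4:147702632-147702881, minus strand, clone b only: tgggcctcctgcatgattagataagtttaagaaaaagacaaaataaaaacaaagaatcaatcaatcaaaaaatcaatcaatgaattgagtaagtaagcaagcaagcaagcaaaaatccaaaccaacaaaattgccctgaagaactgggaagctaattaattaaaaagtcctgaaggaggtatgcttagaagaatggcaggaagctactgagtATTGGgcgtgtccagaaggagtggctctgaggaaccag
BC051142, chr17:34398570-34398819, plus strand, clone b only: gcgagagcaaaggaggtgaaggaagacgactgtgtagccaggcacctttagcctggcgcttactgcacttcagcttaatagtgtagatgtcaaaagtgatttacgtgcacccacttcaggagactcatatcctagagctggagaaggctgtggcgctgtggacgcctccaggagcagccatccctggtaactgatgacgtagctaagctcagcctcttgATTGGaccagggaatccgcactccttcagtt
Bcl2l2, chr14:54883175-54883424, plus strand, clone b only: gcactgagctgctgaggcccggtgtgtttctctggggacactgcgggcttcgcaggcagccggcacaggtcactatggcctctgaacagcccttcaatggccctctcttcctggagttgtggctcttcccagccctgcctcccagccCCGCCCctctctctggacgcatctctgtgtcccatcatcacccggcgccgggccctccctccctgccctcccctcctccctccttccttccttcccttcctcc

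These 5 windows differ widely in base composition. Zfp534, a zinc finger gene, had 38% G and C and 1 CpG pair, and Cs, which encodes citrate synthase of the Krebs cycle, had 55.2% and 13 CpG pairs with 2 GC boxes and 2 CCAAT boxes. Bcl2l2, an anti-apoptotic member of the BCL-2 family, had 66% and 1 GC box. Over all windows the GC box was present in 59.3% of those overlapped by clone a only regions, in 57.4% for clone b only, in 62.0% for regions called in all 4 libraries and in 42.6% of every window. The CCAAT box was present in 46.9%, 31.5%, 34.7% and 35.4% of the same 4 sets, and the TATA box in 7.08%, 5.56%, 5.21% and 11.6%. Median CpG pairs were 13, 15, 18 and 10. A match is a description of letters and not a bound site. At Cs the clone a only region (chr10:128336810-128337598) lay 146 bp from a region that clone b also had, whereas at Zfp983 and Zfp534 the nearest region of the other clone was 29.0 and 3.78 kb away.

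The lists were of like size. They held 61203 peaks (53.1 Mb) in untreated and 59170 (51.5 Mb) in treated clone a, and 63276 (50.4 Mb) and 62764 (50.7 Mb) in clone b. The lists carry no read counts and their depth is unknown. A region missing from a list may therefore lie just under the authors' threshold. All 8 embryonic stem cell markers had at least 1 kb of peak on average within their gene and 50 kb on either side. Their summed length was 213 kb in untreated and 221 kb in treated clone a, and 192 and 200 kb in clone b. Of 6 primitive endoderm markers 1 had as much, with sums of 1.99 to 3.70 kb in the 4 libraries and Foxa2 at 0. Of 8 feeder fibroblast markers 4 did (13.3 and 23.9 kb in clone a, 14.1 and 28.9 kb in clone b, Postn at 0), and of 6 markers of differentiated tissue 2 did (4.41 and 9.04 kb against 7.39 and 12.7 kb, Alb at 0). All 6 trophoblast markers had as much, with 43.4 and 36.2 kb in untreated and treated clone a and 34.0 and 30.3 kb in clone b. Of 6 neural markers 3 did (14.4 and 9.76 kb against 12.3 and 7.36 kb, Neurog2 and Olig2 at 0), and of 6 mesoderm markers 3 did (16.0 and 22.9 kb against 14.4 and 23.5 kb). The part of other cell types in the clone difference was not tested.

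The clone contrast gave fewer regions than the treatment contrast over the same 4 lists. Against 2787 and 2433 regions of a single clone, 5185 regions were called in both untreated libraries only and 5130 in both treated libraries only. The crossed pairs, untreated of one clone with treated of the other, gave 411 and 455. Regions called in all 4 libraries numbered 30131. Another 2732 regions were missing from treated clone b alone and 1971 from untreated clone b alone, and 1986 and 2660 were missing from treated and untreated clone a alone. These 4 sets fall just outside the rule by a single peak call. Regions called in a single library numbered 7330 and 5044 in untreated and treated clone a and 6467 and 8070 in clone b.

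Clone-specific regions were narrow and ranked low in their lists. Their median width was 457 bp (quartiles 350 and 627.5) in clone a and 443 bp (340 and 600) in clone b, against 1263 bp for regions called in all 4 libraries and 274 bp for those called in 1. The authors' score, used here only as a rank within its own list, placed clone a only regions at a median percentile of 29.7 in the untreated and 27.1 in the treated list. Clone b only regions stood at 28.2 and 30.8, and regions called in all 4 libraries at 71.9 to 72.6. Only 133 clone a and 170 clone b only regions were in the upper 50% of both of their lists, 3 and 10 in the upper 25%, and 0 in the upper 10%. Width and score come from the calls that chose the regions, so these values describe the sets and no test was made.

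**Figure D1:**
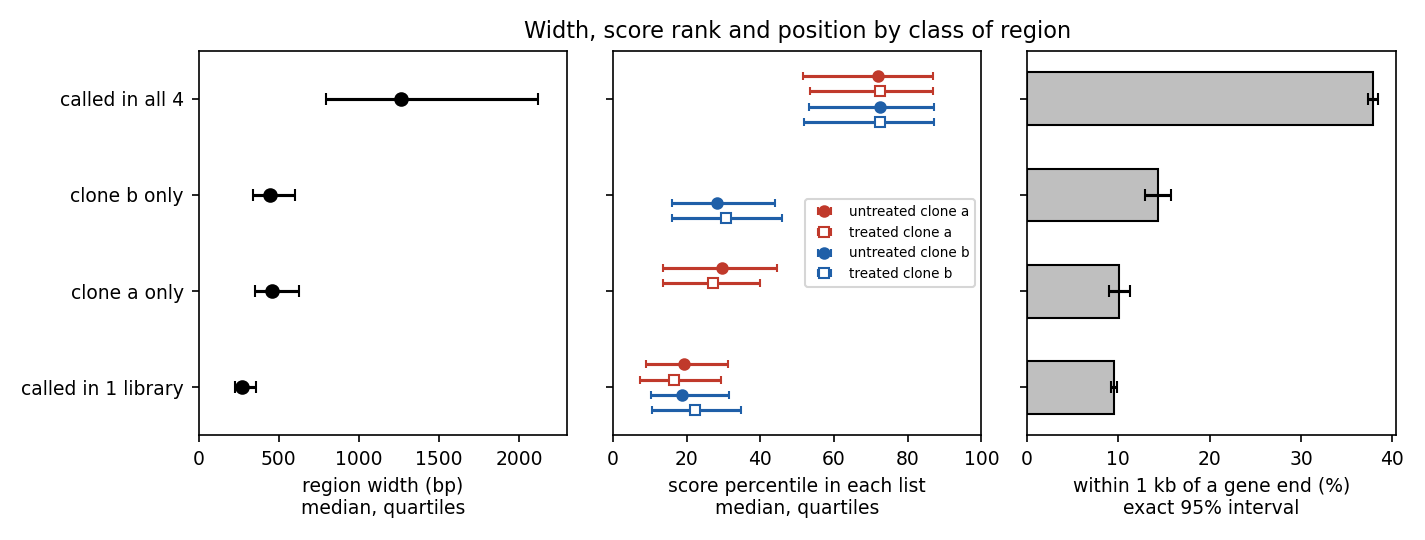
Width in bp (left, median and quartiles), score percentile within each list (middle, median and quartiles, one marker per library) and percent of regions within 1 kb of a gene end (right, exact 95% interval) for regions called in 1 library, in clone a only, in clone b only and in all 4. Both clone-specific classes sit at medians of 457 and 443 bp and below the 31st percentile of their lists.

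By position, 281 clone a only regions (10.1%, exact 95% interval 8.99 to 11.3) and 348 clone b only regions (14.3%, 12.9 to 15.8) lay at most 1 kb from the start or end of a protein-coding gene. The share was 37.9% for regions called in all 4 libraries and 21.2% for every union region. More clone a only regions lay inside genes, 53.1% against 44.5%, and more clone b only regions lay over 100 kb from any gene, 12.4% against 7.79%. The intervals cover counting error only, and neighbouring regions are not independent. The order of the clones turned without treated clone b (13.5% for clone a and 10.2% for clone b), and without treated clone a the shares were 8.13% and 22.4%. With a library left out, a single library decides for that clone, so the classes are wider. Without treated clone b they held 4902 and 9342 regions, against 2787 and 2433 under the rule. Many clone-specific regions lay beside regions of the other clone: 1385 of clone a (49.7%) and 1066 of clone b (43.8%) had a region of the other clone within 1 kb. Among the 1402 and 1367 that did not, 5.49% and 15.7% were at a gene end.

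The highest-ranked clone a only region lay in Sfi1, a centrin-binding protein of the centrosome (chr11:3192674-3194135, 1462 bp). It stood at the 86.1 and 83.7 percentiles of the untreated and treated lists. Next came a region 34.9 kb from Tead4, a TEA-domain factor that partners YAP (chr6:128190797-128192194), at 87.2 and 80.8. The third, 2.62 kb from Sft2d2, a gene of vesicle transport (chr1:165169908-165171722), stood at 94.3 and 63.7, with no clone b region for 21.8 kb. The others of the top 10 lay near Arl4c, Slfn3, Pcsk2, Mcc, Trem1 and Frmd4b and 176 kb from Epm2a. They are of mixed kinds: Pcsk2 encodes a prohormone convertase, Trem1 a receptor of myeloid cells and Arl4c a small GTPase. At gene ends the 5 with the highest mean rank lay at Zfp983, Pwwp2a, Sft2d2, Szrd1 and Nudt12.

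The highest-ranked clone b only region lay in Ugt3a2, a UDP-glycosyltransferase (chr15:9356600-9357167, 568 bp), at the 90.2 and 89.6 percentiles, and the nearest clone a region was 78.2 kb away. A 2812 bp region 85.6 kb from LOC115488203 on chromosome 13 stood at 84.0 and 91.0. A region in Zyg11a on chromosome 4, which encodes a substrate receptor of a ubiquitin ligase, stood at 80.8 and 82.3. Of the remaining 7, 1 lay 18.7 kb from Zmym5 on chromosome 14 and 1 lay 7.86 kb from Hacd2, an enzyme of fatty acid elongation. Regions on chromosome 12 lay in Gm38702 (chr12:19875482-19875796), 149 kb from Zfp996 (chr12:18236910-18238088) and 277 kb from Gm10476 (chr12:22137149-22137435). Ythdf3 and Aga were 714 and 1055 kb from their regions. At gene ends the top 5 lay at Zfp979, Jakmip3, Ceacam19, Ndufa4l2 and Cryl1. How uniquely reads map in the highest-ranked regions of either clone was not examined.

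Along the genome, clone a only regions varied little between chromosomes and clone b only regions were most frequent on chromosome 14. Leaving out chromosome Y, which held 23 union regions, clone a only regions made up 2.54% (chromosome 14) to 3.86% (chromosome 1) of a chromosome's regions. After chromosome 1 came chromosomes 17 (3.83%) and 4 (3.79%). Clone b only regions made up 5.97% of those on chromosome 14, followed by 3.49% on chromosome 15 and 3.42% on chromosome 13, and 2.13% to 3.08% on all the others.

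**Figure D2:**
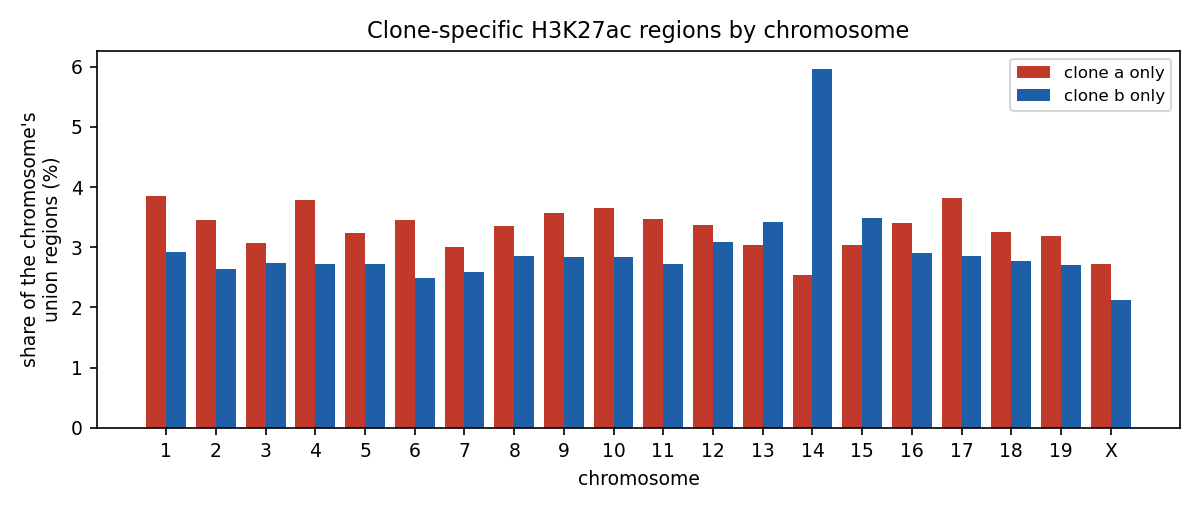
Percent of each chromosome's union regions called in clone a only (red bars) and clone b only (blue bars), chromosome Y left out. Chromosome 14 has the highest clone b only share (5.97%) and the lowest clone a only share (2.54%).

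On chromosome 14, 135 clone b only regions followed one another with 0 clone a only regions between them, from 47681173 to 69772741 (mm10), a span of 22.1 Mb. They were 15.6% of the 863 union regions there, against 2.80% elsewhere. The nearest clone a only regions on either side were chr14:47629330-47629544 and chr14:70312149-70312646. The next longest runs of one clone were 32 clone a only regions on chromosome 4 (6.77% of the 473 union regions in their 20.6 Mb), 22 on chromosome 1 and 18 clone b only regions on chromosome 13. A run of 19 clone a only regions spanned 0.584 Mb of chromosome 11 around Pitpnc1. The bounds of the chromosome 14 interval come from the regions themselves, so their number in it is a description. Peak lengths and numbers in the interval include the peaks of these regions, which set its bounds, and are therefore given also without them.

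Within the interval, peaks covered 300.7 kb in untreated and 286 kb in treated clone a, and 576 and 602 kb in clone b. Both clone a libraries lay below both clone b libraries, and the ratio of a to b was 0.476 to 0.522 over the 4 pairs of libraries. Without the 135 regions clone b covered 516 and 536 kb, and the ratio was 0.534 to 0.583. The input libraries were not analysed here, so a difference in DNA content of the interval and a difference in H3K27ac per copy cannot be told apart. In the flank of equal length to the left the same ratio was 0.909 to 1.07, and to the right 0.925 to 1.2. Peak numbers were 420 and 432 in clone a against 722 and 747 in clone b, or 585 and 608 without these regions. Of 22 windows of 1 Mb, clone a was below clone b in both treatments in 21. The 1 Mb just before the interval was also lower in clone a, with 27.6 and 26.8 kb against 41.3 and 44.4 kb and 7 clone b only regions, so the difference begins before the first region of the run. At the other end the last windows did not differ in one direction: the window starting 21 Mb in held 0.29 and 0.727 kb in clone a and 0.317 and 0.364 kb in clone b.

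**Figure D3:**
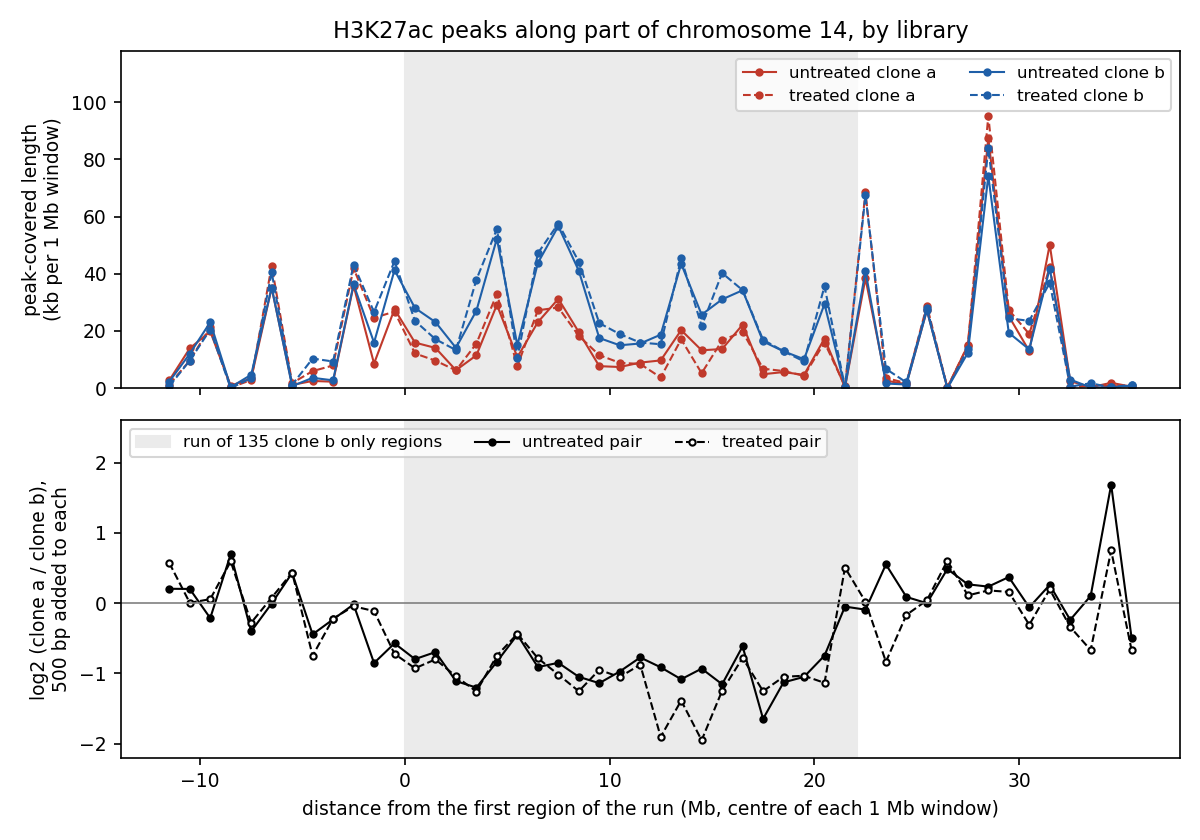
Top, peak-covered length in kb per 1 Mb window in each of the 4 libraries; bottom, log2 ratio of clone a to clone b in the untreated and treated pairs, with 500 bp added to each length. The grey span is the 22.1 Mb run on chromosome 14, where clone a covered 300.7 and 286 kb and clone b 576 and 602 kb.

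Regions of other classes, which did not set the bounds, differed in the same interval. Of 240 regions called in all 4 libraries there, 216 (90%) were narrower in clone a in both treatments, against 27.3% of such regions elsewhere. Their median log2 ratio of width, clone a over clone b, was -0.34 in untreated and -0.35 in treated cells, against 0.03 and 0.03 elsewhere. Peaks called in a single library numbered 10 and 6 for untreated and treated clone a and 127 and 183 for clone b. As shares of the interval's regions these are 1.16%, 0.695%, 14.7% and 21.2%, and elsewhere the 4 shares were 8.93%, 6.15%, 7.74% and 9.63%. Regions called in both untreated libraries only made up 2.90% of the interval and 6.30% of the rest, and in both treated only 1.39% and 6.25%.

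Covered length was also compared over 523 bins of 5 Mb across the genome, clone-specific regions included. The bins were laid after the interval had been seen, so the values are a description. With treatment as a factor limma called 158 bins (30.2%), 102 longer in clone a and 56 longer in clone b. All 5 bins that overlap the interval were among the 56, and they had log2 differences of -0.49 to -1.15. The other 518 bins ranged from -0.73 to 0.35. Without the treatment term 3 bins (0.574%) were called, on chromosome 14 from 50 to 65 Mb, and without treated clone b 0. In the bin from 50 to 55 Mb the covered length was 81.3 and 92.9 kb in untreated and treated clone a against 155 and 172 kb in clone b. From 55 to 60 Mb it was 78.3 and 70.5 kb against 147 and 150 kb, and from 60 to 65 Mb 72.8 and 62.7 kb against 146 and 156 kb. The 518 bins that do not overlap the interval had ratios of 0.578 to 1.39 in untreated and 0.592 to 1.32 in treated cells. Of these, 1 bin, on chromosome X from 115 to 120 Mb, was also under 0.7 in both, with 8.46 and 5.13 kb against 14.6 and 8.67 kb. The bins with the highest clone a only share were chromosome 17 from 50 to 55 Mb (15 of 98 regions) and chromosome 1 from 100 to 105 Mb (6 of 49).

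Of the 135 regions of the interval, 126 lay within 100 kb of a gene, and these had 81 nearest genes between them. Their median width was 519 bp, 76 (56.3%) lay inside a gene, 31 (23.0%) lay at a gene end, and 18 were in the upper 50% of both clone b lists. Kif13b, a kinesin, had 7 of them (chr14:64586352-64667039) and Tnfrsf19, a receptor of the tumour necrosis factor family that WNT signalling induces, had 6 (chr14:60975524-61044072). Cdh24, Dock5, Fgf9, Homez, Kcnrg and Nfatc4 had at least 3 each; these 6 were named after their values were seen. The windows before the starts of Bcl2l2, Cdh24, Homez, Ndrg2, Peli2, Rnase12, Spryd7, Tgm1 and Trim13 were overlapped by one.

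Covered length was also compared per gene locus, the gene with 50 kb on either side. Of 16049 loci with a mean of at least 1 kb, limma with treatment as a factor called 2390 (14.9%) between the clones, 1474 (9.18%) longer in clone a and 916 (5.71%) longer in clone b. Scaled to each library's total, the split was 1258 and 1368. Both clone a libraries lay above both clone b libraries at 3275 loci (20.4%) and the reverse held at 2102 (13.1%). Windows of neighbouring genes share peaks, so the 2390 loci hold 2227 distinct sets of lengths. The calls rest on the treatment term: without it 0 loci passed and 970 had an unadjusted p under 0.05, and leaving out any single library also gave 0, with 416 to 621 under 0.05. With the upper 50% of each list by score 0 passed as well, with 3193 under 0.05. Locus lengths include the clone-specific regions themselves. With the peaks of those regions taken out, 1639 of 15976 loci passed (10.3%), 1007 longer in clone a and 632 longer in clone b.

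In the chromosome 14 interval 196 of 215 tested loci (91.2%) passed and all 196 were longer in clone b, with a median log2 difference of -0.88. Over the other 15834 loci 2194 (13.9%) passed, 1474 of them longer in clone a, and the median was 0.04. The interval was bounded by clone b only peaks that these lengths contain, so the count and its direction are a description. With those peaks taken out, 168 of 208 loci of the interval (80.8%) passed, all 168 longer in clone b with a median of -0.73, against 9.33% of the other loci. Gulo, which makes the last step of vitamin C synthesis, was listed at 0 in both clone a libraries and at 2.39 and 2.04 kb in untreated and treated clone b. Its neighbour Clu, which encodes clusterin, shares peaks with it. Fgf9, an FGF ligand, had 0.225 and 0.336 kb in clone a and 1.5 and 3.58 kb in clone b (log2 difference -1.87). Tnfrsf19 had 6.24 and 6.88 kb against 15.2 and 20.8 kb (-1.38, and -1.16 without its clone-specific regions).

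Other loci of the interval span many kinds of gene. Clu, Fgf9, Hnrnpc, Psme1, Loxl2 and Chmp7 were picked from the interval after their values were seen. Gata4, a GATA factor of primitive endoderm and heart, had 1.5 and 1.58 kb in clone a and 3.49 and 3.14 kb in clone b (-0.90, SE 0.16). Myh6, a cardiac myosin heavy chain, had 4.18 and 5.68 kb against 6.90 and 9.66 kb (-0.69, SE 0.11). The same order held at Hnrnpc, an RNA-binding protein of the nucleus, with a log2 difference of -0.91 (SE 0.06). Psme1, a proteasome activator, had -0.77, and its window shares its peaks with those of neighbouring genes. Cryl1 had 0.511 and 0.513 kb against 2.56 and 2.80 kb, and the locus of Zmym5 2.63 and 3.41 kb against 5.01 and 6.2 kb (-0.80, and -0.39 and not past the threshold without its clone-specific regions). The homeobox gene Otx2, active in the formative epiblast, had 16.8 and 9.83 kb in clone a and 18.7 and 12.1 kb in clone b and did not pass (-0.22, SE 0.08, adjusted p = 0.0937). Loxl2 and Chmp7, at the right end, did not pass either (0.08 and -0.22). Lgals3, which encodes galectin-3 and lies just left of the interval (chr14:47373860-47386167), had 4.84 and 4.94 kb against 10.95 and 16.1 kb (-1.36, SE 0.13, adjusted p = 0.00227).

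**Figure D4:**
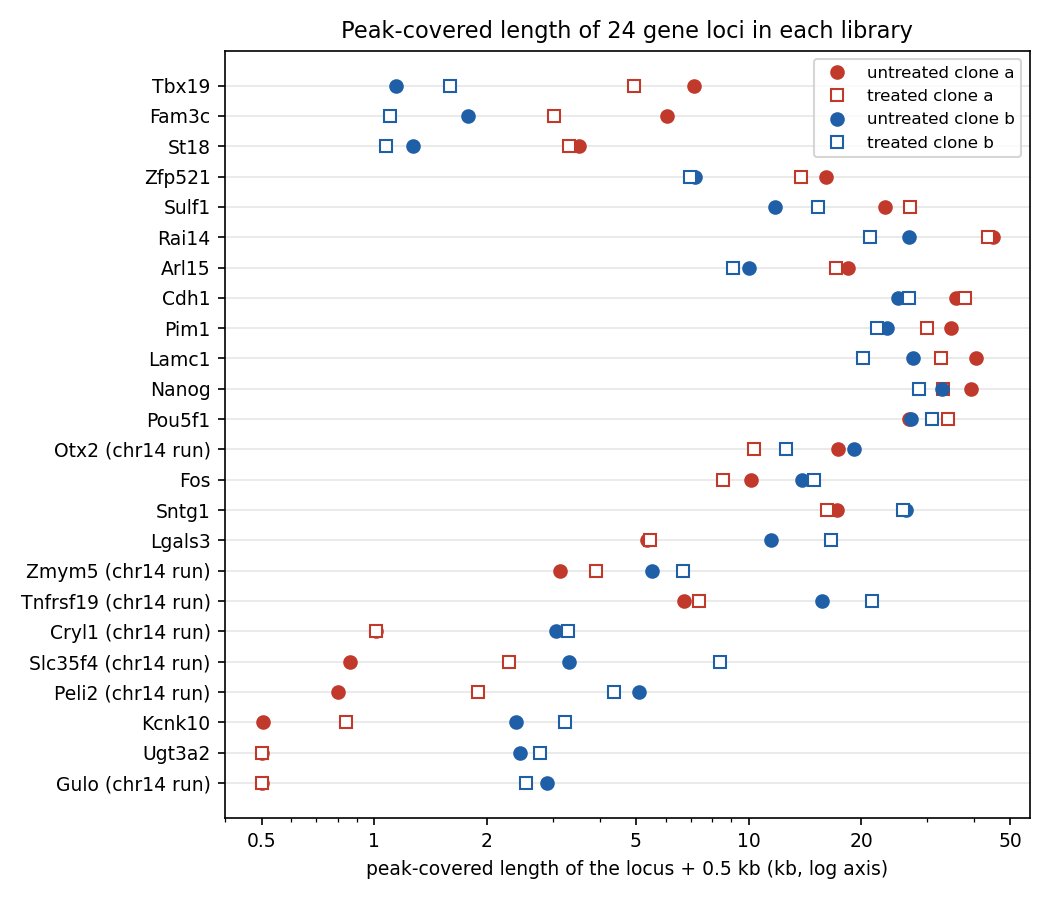
Peak-covered length of 24 loci (gene and 50 kb on either side, plus 0.5 kb, log axis) in untreated (filled circles) and treated (open squares) clone a (red) and clone b (blue). In Tbx19 both clone a libraries lie to the right of both clone b libraries, in Gulo and Ugt3a2 both clone a libraries are at 0, and in Pou5f1 the clones overlap.

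Outside chromosome 14, the largest difference toward clone a was at Tbx19, a T-box factor (chr1:165137834-165160773). Its locus had 6.64 and 4.43 kb in untreated and treated clone a and 0.641 and 1.10 kb in clone b (log2 difference 2.14, SE 0.24, adjusted p = 0.0033). Sft2d2 and Tiprl lie next to it and share its peaks, so these 3 loci are one site. Without its clone-specific regions the difference at Tbx19 was 0.90 and did not pass. Fam3c, a secreted factor, had 5.54 and 2.53 kb against 1.27 and 0.6 kb (1.61, SE 0.18). St18, a zinc finger factor, had 3.01 and 2.82 kb against 0.766 and 0.572 kb (1.55, SE 0.20). Ifit3b, an interferon-induced gene, had 1.84 and 2.03 kb against 0.45 and 0 kb, and Crispld1, Olfr1058 and Rpl32l were the other loci with large differences in this direction. Toward clone b, Ugt3a2 was listed at 0 in both clone a libraries and at 1.95 and 2.28 kb in clone b. Kcnk10, a potassium channel, had 0.005 and 0.339 kb against 1.89 and 2.73 kb (-2.09, SE 0.25), and Clec2f, a C-type lectin, 1.41 and 0 kb against 4.88 and 2.45 kb (-2.03, SE 0.27). The 4 other loci at the top of this direction, Rnase10, Peli2, Slc39a2 and Slc35f4, lie in the chromosome 14 interval. Fam3c had 3 clone a only regions and St18 had 1, and Ugt3a2 and Kcnk10 had 2 clone b only regions each. The lengths of these loci can include such regions, so their differences are a description.

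Some genes gathered several regions of one clone and 0 of the other. Of 1888 genes with a clone a only region within 100 kb, 123 had at least 3 and 0 of clone b, and for clone b 53 of 1739 genes had at least 3 and 0 of clone a. The genes named here were chosen for these counts, so their locus lengths are a description. The differences are given also without the clone-specific regions, except at 1500009L16Rik. Pitpnc1, a lipid transfer protein, and Rai14, an actin-associated protein, had 9 clone a only regions each, all inside the gene. The Rai14 locus had 44.6 and 43.2 kb in clone a and 26.4 and 20.6 kb in clone b (log2 difference 0.90, and 0.79 without these regions). Sulf1, which trims heparan sulfate and so tunes FGF and WNT signals, had 8, in a cluster of regions up to 1676 bp wide, and a locus length of 22.7 and 26.5 kb against 11.2 and 14.9 kb (0.90, and 0.52 without them). Kat2b, an acetyltransferase of histone H3, had 8, with 32.6 and 35.6 kb against 21.02 and 24.3 kb (0.58, and 0.42 without them). Arl15, a small GTPase, and Pde4d, a phosphodiesterase of cyclic AMP, also had 8 each. At Pitpnc1 the clones overlapped, with 50.4 and 67.3 kb in clone a and 42.1 and 54.1 kb in clone b (0.29, and 0.17 without them).

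For clone b, the genes after Kif13b and Tnfrsf19 had 5 regions each. Sntg1, a syntrophin, had a locus of 16.7 and 15.7 kb in untreated and treated clone a and 25.8 and 25.4 kb in clone b (-0.64, and -0.53 without these regions). Ank, which moves pyrophosphate out of cells, had 7.03 and 5.57 kb against 11.1 and 9.88 kb (-0.70, and -0.45 without them). At 1500009L16Rik the locus had 0.403 and 0.506 kb against 2.35 and 3.17 kb (-1.76). The clone b lengths there include its 5 clone b only regions, of 406 to 663 bp, and no value without them is given. Olfr761 is the nearest gene of 5 regions, 22.5 to 47.9 kb away, in a cluster of olfactory receptors. Olfactory receptors as a family were the nearest gene of 23 clone b only (1.08%) and 6 clone a only regions (0.233%), and of 0.510% of every region within 100 kb of a gene. Vomeronasal receptors were the nearest gene of 12 (0.563%) and 3 (0.117%), and of 0.256% of every region. Such families hold near-identical copies, between which reads may be placed wrongly. Both families were picked once their values had been seen.

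The loci of Pou5f1, Sox2, Nanog, Esrrb, Klf4 and Sall4 held peaks in all 4 libraries. For each of the 21 gene lists, the number of genes given is the number whose locus was tested. The counts of called genes stand against 14.9% called over all loci, 9.18% longer in clone a and 5.71% longer in clone b, and the counts of regions against 3.37% clone a only and 2.94% clone b only over all union regions. With lists of this size, a share near these values is no result about the list. Where a list locus holds clone-specific regions, its length and adjusted p draw partly on the peaks that the rule chose. Of 8 embryonic stem cell markers 3 passed, all longer in clone a, and 5 clone a only and 4 clone b only of 123 regions were assigned to the list (4.07% and 3.25%). The median log2 difference was 0.15, against 0.04 over all loci. Nanog, the homeodomain factor, had 38.9 and 32.5 kb in untreated and treated clone a and 32.4 and 28.1 kb in clone b (0.23, SE 0.04, adjusted p = 0.0102). Treated clone a and untreated clone b were nearly equal there. Esrrb, an orphan nuclear receptor, had 46.8 and 53.2 kb against 43.3 and 49.0 kb (0.12, SE 0.03, adjusted p = 0.0315), and Sall4, a zinc finger factor, 19.2 and 19.98 kb against 15.3 and 14.6 kb (0.38, SE 0.07). Pou5f1, the POU factor of pluripotency, had 26.4 and 33.7 kb against 26.6 and 30.4 kb (0.07, SE 0.05, adjusted p = 0.432). Sox2 had 22.9 and 21.7 kb against 20.9 and 20.8 kb and Klf4 12.7 and 10.6 kb against 13.6 and 12.4 kb, and neither passed.

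Of 21 naive pluripotency genes 5 passed, all longer in clone a: Tfap2c, Dppa3, Prdm14, Nanog and Esrrb. The list had 12 clone a only and 5 clone b only of 368 regions (3.26% and 1.36%). Tfap2c, an AP-2 factor, had 22.2 and 8.71 kb in clone a and 12.9 and 4.61 kb in clone b (0.80, SE 0.09, adjusted p = 0.00294), so its clones overlapped and within each treatment clone a was longer. With 1 library left out, and so no treatment term, the difference was 0.10 to 1.5. Prdm14, a PR-domain repressor of FGF signalling, had 29.8 and 16.9 kb against 23.0 and 13.6 kb (0.34, SE 0.06). With 1 library left out, and so no treatment term, its difference was -0.060 to 0.74. Within the untreated and treated pairs it was 0.37 and 0.31. Dppa3 had 15.3 and 12.9 kb against 11.7 and 10.3 kb (0.34, SE 0.08), and without its clone-specific regions it did not pass (0.26). Of 10 genes of the LIF, JAK and STAT3 pathway, which sustains self-renewal, 3 passed toward clone a. The kinase gene Pim1, a STAT3 target with 4 clone a only regions, had 34.2 and 29.5 kb against 22.9 and 21.5 kb (0.50, SE 0.05, adjusted p = 0.00236). Lif itself (0.33, adjusted p = 0.0471) and Pim3 (0.19, adjusted p = 0.0496) were just past the threshold. At Pim3 the difference was -0.14 to 0.51 with 1 library left out, and so no treatment term. Within the untreated and treated pairs it was 0.18 and 0.20.

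Genes of the ERK pathway were called in both directions. Of 15 feedback regulators and ETS factors 3 passed toward clone a and 1 toward clone b, with 8 clone a only and 2 clone b only of 229 regions (3.49% and 0.873%). Il17rd, an inhibitor of FGF signalling, had 24.9 and 30.9 kb in clone a and 18.9 and 22.3 kb in clone b (0.43, SE 0.05, adjusted p = 0.00353), and Spred2 and Etv5 differed by 0.23 and 0.19. The ETS factor Etv4 had 2.10 and 12.7 kb against 3.62 and 15.8 kb (-0.48, SE 0.12, adjusted p = 0.0388). With 1 library left out, and so no treatment term, the difference was -1.66 to 0.69. Within the untreated and treated pairs it was -0.66 and -0.30. Spry4, an ERK feedback inhibitor, had 5.18 and 31.3 kb against 10.1 and 31.5 kb and did not pass. The phosphatase gene Dusp6 did not pass either, with 9.31 and 10.1 kb against 9.42 and 8.06 kb. Of 24 immediate-early genes 2 passed toward clone a, Nr4a1 (0.42, SE 0.07) and Ier3 (0.27, SE 0.07), and 1 toward clone b. That was Fos, with 9.64 and 8.04 kb in clone a and 13.4 and 14.4 kb in clone b and 2 clone b only regions (-0.63, SE 0.10, adjusted p = 0.00919). Egr1 had 6.58 and 7.76 kb against 5.63 and 6.33 kb and did not pass (0.24, SE 0.10).

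**Figure D5:**
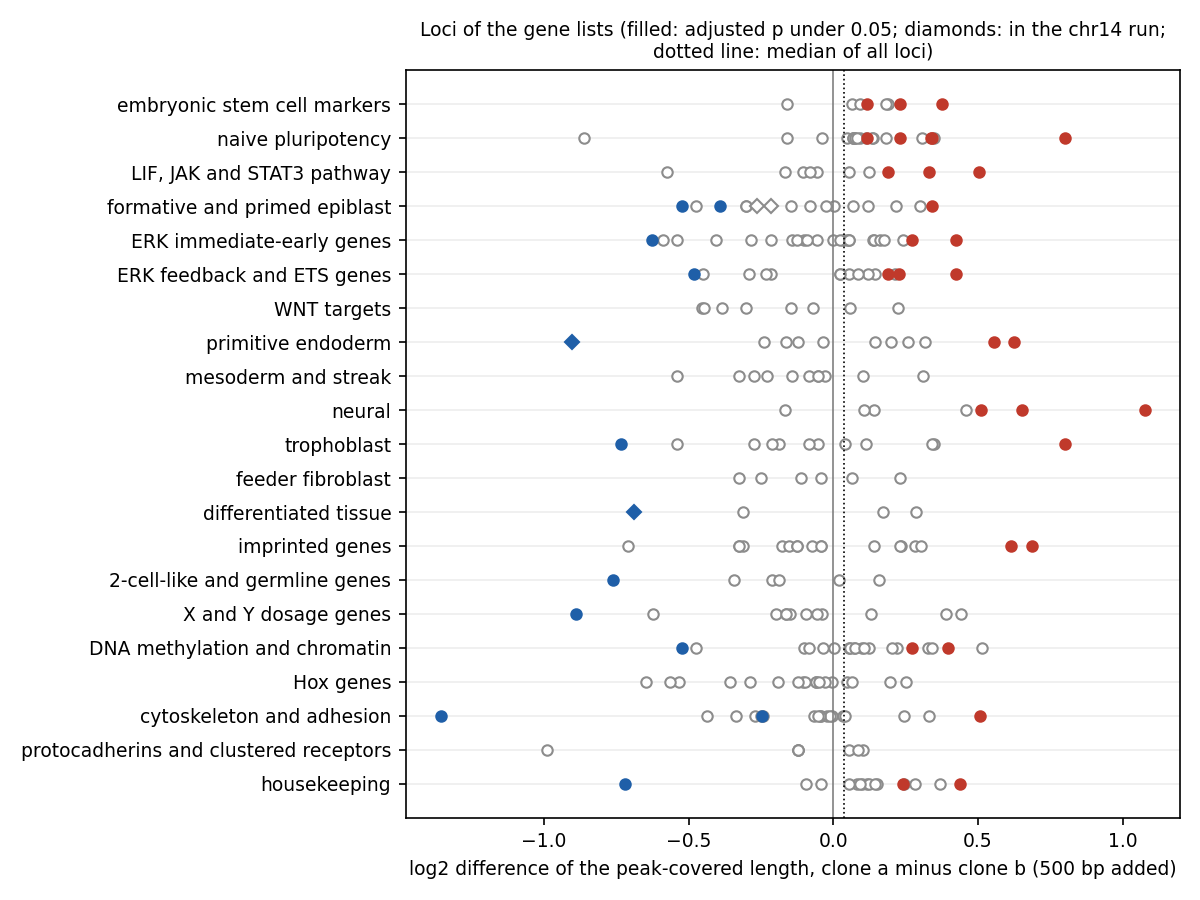
Log2 difference in peak-covered length, clone a minus clone b, for each tested locus of 21 gene lists; filled points passed at an adjusted p of 0.05, diamonds lie in the chromosome 14 interval, and the dotted line is the median of all loci (0.04). The called pluripotency loci lie to the right of 0, and the called loci of primitive endoderm and cytoskeleton lie on both sides.

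Lineage genes were called in both directions, in small lists. Of 16 tested formative and primed epiblast genes 1 passed toward clone a (Nodal, a TGF-beta ligand, 0.34, SE 0.07) and 2 toward clone b (the DNA methyltransferase gene Dnmt3a, -0.52, SE 0.13, and Utf1, -0.39, SE 0.10). Of 11 primitive endoderm genes the laminins Lamc1 and Lama1 passed toward clone a and Gata4, in the chromosome 14 interval, toward clone b. Lamc1, with 4 clone a only regions, had 40.0 and 32.3 kb against 27.1 and 19.8 kb (0.62, SE 0.05, adjusted p = 0.00114). Of 7 neural genes 3 passed toward clone a, led by the zinc finger factor Zfp521, with 4 clone a only regions and 15.6 and 13.4 kb against 6.69 and 6.47 kb (1.08, SE 0.09, adjusted p = 0.00139). Pax6 and Tubb3 differed by 0.65 and 0.51. With 1 library left out, and so no treatment term, Pax6 ranged from 0.23 to 1.08 and Dnmt3a from -0.96 to -0.088. Without clone-specific regions Nodal (0.20), Utf1 (-0.36), Lama1 (0.29), Pax6 (0.51) and Krt8 (-0.62) did not pass. Of 12 trophoblast genes Tfap2c passed toward clone a and the keratin Krt8 toward clone b (-0.73, SE 0.17). None of 8 WNT targets, 11 mesoderm genes, 6 feeder fibroblast genes, 18 Hox genes or 7 protocadherins and clustered receptors passed in the same fit. Fgf5 had 0 kb in every library, and Gata6 and Zscan4d had under 0.7 kb in each.

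Among chromatin and structural genes, 20 of DNA methylation and chromatin carried 12 clone a only and 2 clone b only of 147 regions (8.16% and 1.36%), and Tet1 and Dnmt1 passed toward clone a and Dnmt3a toward clone b. Tet1, which oxidises methylated cytosine, had 4 clone a only regions and 32.4 and 33.7 kb in clone a against 26.7 and 27.8 kb in clone b (0.27, SE 0.04, adjusted p = 0.00677). Dnmt1, the maintenance methyltransferase, had 21.4 and 22.8 kb against 16.7 and 16.6 kb (0.40, SE 0.06). Of 19 cytoskeleton and adhesion genes 1 passed toward clone a and 2 toward clone b. Cdh1, the epithelial cadherin, had 3 clone a only regions and 35.4 and 37.3 kb against 24.6 and 26.3 kb (0.51, SE 0.04, adjusted p = 0.00121), whereas Lgals3, beside the chromosome 14 interval, and the adhesion gene Epcam (-0.25, SE 0.07) passed toward clone b. Of 18 imprinted genes Grb10 (0.61, SE 0.06) and Plagl1 (0.69, SE 0.12) passed toward clone a. The non-coding genes were given no test: H19 had 0.438 and 0.725 kb against 0.626 and 1.34 kb, Meg3 3.82 and 8.63 kb against 5.65 and 9.57 kb, and Xist 16.2 and 16.5 kb against 12.2 and 13.8 kb. Of 12 X and Y dosage genes the ERK phosphatase gene Dusp9 passed toward clone b (-0.89, SE 0.24, adjusted p = 0.0479), although with windows of 100 kb its difference was 0.10, and of 6 genes of 2-cell-like cells and the germline Stk31 did (-0.76, SE 0.11). Without clone-specific regions Dusp9 did not pass (-0.73). Of 16 housekeeping genes Rpl13a (0.44) and Tubb5 (0.24) passed toward clone a and Hprt toward clone b (-0.72). Tubb5 (0.24) and Hprt (-0.52) did not pass without clone-specific regions. Actb had 8.90 and 13.97 kb against 7.41 and 11.8 kb (0.24, SE 0.08, adjusted p = 0.0958).

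Regions called in all 4 libraries were not chosen for a clone difference, and their widths gave no call. Of 30131 such regions 0 passed in limma with treatment as a factor (0%), and the lowest adjusted p was 0.165. An unadjusted p under 0.05 was found for 5395 (17.9%), 3399 wider in clone a and 1996 wider in clone b. In the chromosome 14 interval 134 of 240 had such a p (55.8%), and all 134 were wider in clone b.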

How the data were processed

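The 4 H3K27ac libraries were compared by clone; the inputs were not analysed here. Bowtie2, bedtools and MACS2 were used on the mm10 build, per the submitters' processing notes, which name no versions. Each file deposited by the authors lists the peaks of 1 library with a score of no stated scale, which was used only as a rank within its list. Depth is unknown. Peaks overlapping by 1 bp or more were merged and assigned to the nearest of 21887 RefSeq protein-coding genes (GRCm38.p6, which shares its coordinates with mm10) within 100 kb. The gene table gives no strand, so nearness was taken to either end of a gene. RefSeq promoter windows were used for sequences only and for their overlap with regions.

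Covered bp per locus (gene and 50 kb on either side, mean of at least 1000 bp), per region called in all 4 libraries and per bin of 5 Mb (at least 20 union regions) were compared with limma 3.58.1 in R 4.3.3 on log2(bp + 500), with a mean-dependent prior variance and Benjamini-Hochberg adjustment at 0.05. Differences on that scale understate those of short lengths. Treatment was a factor for loci and regions, since the labels give each clone 1 library per treatment. As a check, the treated minus untreated differences of the 2 clones correlated at 0.828 over 16049 loci and 0.691 over 30131 regions. With the term 1 residual degree of freedom is left per locus and 6.64 are borrowed across loci. Files were read with Python 3.11.15 and pandas 2.3.3. The locus fit was also run on simulated data with independent noise of the same spread at every locus. Real windows share peaks and vary in spread, so that run cannot tell how many calls here are false. At most 8 peaks of any 2 lists had identical bounds.

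The clone contrast, the 21 gene lists and the members were chosen with earlier results of these data known. Named genes are 17 always named, the nearest genes (within 100 kb) of the 10 highest-ranked regions of each clone and of the 5 at gene ends, the 6 genes with the most regions of one clone and 0 of the other, the 8 largest called loci in each direction, up to 4 called members of a list in each direction, and the 3 chromosomes and 5 bins with the highest shares. Genes of the chromosome 14 interval named outside that rule are marked as such. The alternatives were the score filter, list length, overlap and merging rules, window, pseudocount, filter, scaling, treatment term, leaving out each library and, added later, leaving out the clone-specific regions.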

Additional observations from a re-analysis of the deposited data

Results flagged for a closer look

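At 5 named loci the difference between the clones had opposite signs in untreated and treated cells, and the difference between the directions was not tested, since each treatment has 1 library per clone. At Dusp6, an ERK phosphatase gene, the log2 difference in covered length, clone a minus clone b, was -0.017 in the untreated libraries and 0.30 in the treated ones. At Pou5f1 it was -0.015 in the untreated and 0.15 in the treated libraries, so at both loci the untreated libraries were nearly equal. Hacd2 had 0.36 and -0.17. Nudt12 had 0.36 and -0.12 and Gata6 -0.51 and 1.15, both at loci under 1 kb of covered length that were not tested.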

How the results depend on the processing

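Covered length moves with how much was called in a list, and depth, which is unknown, can affect which weak regions were called. Its effect was not tested. Clone a only and clone b only regions numbered 1231 and 1283 in the upper 50% of the lists by score, 828 and 675 among the top 20000 peaks and 1309 and 1295 with peaks merged within 1000 bp. With 1 library left out, so that a single library decides for that clone, they ranged from 4902 to 10745 and from 4599 to 10924. Shortened to the shortest list they were 3079 and 2105, and with 50% coverage 3663 and 2961. In the chromosome 14 interval clone b only regions were 87, 60 and 73 under the first 3 settings and 180 to 340 without 1 library. Clone a only regions there were 1 with 50% coverage, 4 to 10 without 1 library and 0 under the others. The share at gene ends, clone a then clone b, was 25.9% and 30.7% within 5 kb, 16.9% and 24.5% in the upper 50%, 20.2% and 27.9% among the top 20000, 6.11% and 16.9% after merging, and 8.13% to 13.5% and 10.2% to 22.4% without 1 library, with the order turned without treated clone b (13.5% and 10.2%). Without the interval it was 10.1% and 13.8%. Regions assigned to list genes within 20 kb numbered 63 and 30, against 73 and 43.

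With no replicate block, that is with no treatment term, 0 loci passed, as with the upper 50% by score and without any 1 library (0 to 0). Windows of 10 and 100 kb gave 1047 and 4161. The other settings gave 1639 to 2626. For bins of 5 Mb the replicate block gave 158 (102 longer in clone a, 56 in clone b), with an infinite prior, and 0 to 7 passed without 1 library (0 without treated clone b, 3 without untreated clone b, 5 without untreated and 7 without treated clone a). Regions called in all 4 libraries gave 0 under each of 10 alternatives. Of the 97 named loci fitted, 81 passed, against 14.9% of all loci, and passing was itself a ground for naming many of them. Scaling to the total length lost 7 of these calls and added 3, with no change of direction. Without the peaks of clone-specific regions, a setting chosen after seeing the data, 1639 loci passed, 17 of the named calls were lost, 1 was added, 7 named loci fell under the length filter, and Hacd2 (-0.15) and Zyg11a (0.051) changed sign. Other differences that changed sign were Arl4c (0.16), Dusp9 (0.10), Jakmip3 (0.069) and Zfp983 (-0.13) with windows of 100 kb and Egr1 (-0.12) and Sox2 (-0.00027) with 10 kb. With 1 library left out they ranged from -0.074 to 0.56 at Actb, -1.66 to 0.69 at Etv4, -0.22 to 0.41 at Hacd2, -0.59 to 0.15 at Otx2, -0.14 to 0.51 at Pim3, -0.11 to 0.24 at Pou5f1, -0.060 to 0.74 at Prdm14 and -1.69 to 0.79 at Spry4. The fits with 1 library left out had no treatment term and set 1 treatment of a clone against both of the other. Their ranges therefore mix treatment with clone. At Spry4 the difference was -0.90 in the untreated pair and -0.0080 in the treated pair. The cause of the shifts was not tested.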
